A study of Mus musculus with 72 samples.

Results

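These data compare aphidicolin with its DMSO vehicle in mouse cells that carry a Cas9 break on chromosome 8. The members are the 6 LAM-HTGTS libraries that the labels give as Xrcc4-/-p53-/- neural progenitor cells of the inhibitor collection, with the chromosome 8 bait and without the polymerase theta inhibitor ART558. They are 6 of the 60 LAM-HTGTS libraries and of the 72 samples of the series, 3 with aphidicolin (Aph) and 3 with DMSO. All 6 come from the line Nxp010, whose neural progenitor cells were derived from embryonic stem cells and also carry NestinCre, so the controls share the loss of Xrcc4 and p53. Aphidicolin was given at 0.5 µM for 72 h and then at 0.25 µM for 24 h after nucleofection, and the controls received DMSO. The study's text calls repeats of these cells technical in one place and biological in another, and the labels only number them, so p-values measure the spread between libraries, which may be technical. Untreated cells of the line were described with a subclonal gain of the bait chromosome, which all 6 libraries can carry. The libraries measure DNA only, so the cell type could not be checked against expressed markers.

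Aphidicolin inhibits the replicative DNA polymerases and at low doses slows replication forks without stopping the cell cycle. Under this stress, breaks gather in long genes expressed in neural progenitor cells as recurrent DNA-break clusters (RDCs). Those used here lie in late-replicating regions of constant timing (CTR) or in timing transition regions between early and late replication (TTR). The study also describes RDCs in biphasically replicating regions. Xrcc4 is a core factor of classical non-homologous end joining, and without it ends are joined by other routes, among them the polymerase theta route, which anneals short stretches shared by both ends (micro-homology). In LAM-HTGTS a primer beside the Cas9 break is extended along the bait end and past the join into the prey, the piece of genome that the bait end was ligated to.

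The guide and the guide-like sites are shown because all distances, bait lengths and the most frequent prey sites outside chromosome 8 are read against them. The guide lies on the minus strand of GRCm38/mm10 at chr8:59477701-59477720, and its capitals mark the PAM. The cut falls between 59477703 and 59477704 in intergenic sequence, with no annotated gene at the cut, and BC030500, at 563405 bp, is the closest protein-coding gene. The bait runs on the plus strand from the first base of the nested primer to the cut and is 129 bp long.
Guide: gtcgaccatatgctaatcttAGG

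A search of the most crowded 1 kb bins on other chromosomes found 2 sites that resemble the guide, both on the minus strand and both followed by the letters of a PAM. The capitals mark the bases that differ from the guide. Positions in the substitutions count from 1 at the guide's 5′ end, with the guide's base first. The site at chr14:22766299-22766321 differs by G1A, T2G, C3T and T20A and lies in an intron of Lrmda (ENSMUSG00000063458.13, chr14:22019712-23056085). The site at chr6:32876433-32876455 differs by G1A, T2C, C3A, T11A and C13T and lies in an intron of Chchd3 (ENSMUSG00000053768.13, chr6:32790976-33060260), which encodes a protein of the mitochondrial inner membrane.
Chromosome 14 site: AGTgaccatatgctaatctAggg
Chromosome 6 site: ACAgaccataAgTtaatcttggg

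The Aph libraries held 7886, 11430 and 7335 junctions on assembled chromosomes and the DMSO libraries 10958, 11913 and 12641. Of these, 1347, 2069 and 1360 lay on other chromosomes with Aph and 711, 824 and 888 with DMSO. All 6 share 1 sequencing run, and pairs of libraries shared at most 1 identical junction. Different positions made up 72.3% to 75.7% of the junctions with Aph and 48.7% to 49.5% with DMSO, since repeated reads of 1 position were kept and pile up close to the cut. On other chromosomes 96.0% to 96.1% and 97.7% to 98.9% of junctions were at different positions. Each p below comes from a two-sided exact permutation test over the 3 Aph and 3 DMSO libraries, which cannot give less than 0.10. That value is reached wherever the groups do not overlap, and no comparison of this kind can pass 0.05.

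The bait was joined to distant DNA far more often with Aph, and less often to the DNA just past the cut. Translocations, the junctions to other chromosomes, made up 17.1%, 18.1% and 18.5% of all junctions with Aph and 6.49%, 6.92% and 7.02% with DMSO. All Aph libraries lay above all DMSO libraries, with means of 17.9 ± 0.749% and 6.81 ± 0.284% (SD, n = 3 each), a ratio of 2.63 (exact permutation p = 0.10). Junctions on chromosome 8 more than 1 Mb from the cut took 5.49%, 6.15% and 5.70% with Aph and 1.55%, 1.52% and 1.61% with DMSO, a ratio of 3.71. This class also differed without overlap, and by the larger ratio of the pair. Repeated positions, which were more frequent with DMSO, move these ratios, and with each position counted once they were 1.69 for translocations (23.1% against 13.7%) and 2.40 for distant chromosome 8 junctions (7.55% against 3.14%). Among the distant junctions alone, translocations were 75.6% with Aph and 81.4% with DMSO. Shares add up to 100% in each library, so they say how junctions were distributed and not how many formed per cell.

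Deletions are junctions in which the prey lies past the cut and keeps its orientation, so that the DNA between is lost. Those of 200 bp to 10 kb were the largest class in every library, at 35.7%, 34.99% and 36.2% of junctions with Aph and 56.3%, 55.7% and 55.4% with DMSO. The difference between the means was -20.1 points, many times the spread of either group. Deletions under 200 bp were 11.2%, 10.8% and 11.55% with Aph and 16.1%, 15.5% and 15.1% with DMSO. Long deletions went the other way, and those of 10 kb to 1 Mb were 1.79%, 1.99% and 1.87% with Aph and 0.456%, 0.554% and 0.680% with DMSO, a ratio of 3.34, or 2.17 with each position counted once.

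Prey on the primer's side of the cut were split by orientation. An inverted junction there joins ends from the same side of a break, as can form between sister chromatids or homologues. Within 10 kb such junctions were 16.5%, 16.002% and 14.6% with Aph and 10.1%, 10.5% and 10.8% with DMSO. With each position counted once they were 17.6%, 17.6% and 16.4% against 15.8%, 15.4% and 16.4%, so that the lowest Aph and highest DMSO library nearly met and the ratio was 1.08. Between 10 kb and 1 Mb they were 4.10%, 4.09% and 3.63% with Aph and 0.374%, 0.487% and 0.538% with DMSO. The ratio of the means, 8.45, was the largest of the 11 classes, and at 5.34 it was also the largest with each position counted once. Direct junctions on this side, the arrangement of a duplication or a circle, were 2.36 ± 0.225% with Aph and 2.79 ± 0.108% with DMSO within 10 kb, a ratio of 0.848, or 0.554 with each position counted once. From 10 kb to 1 Mb they were 0.900 ± 0.0221% and 0.250 ± 0.0456%, again the higher with Aph, and the ratio went from 3.60 to 2.29 with each position counted once.

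Inversions past the cut followed the same division by distance. Within 10 kb they were 4.57%, 4.25% and 4.09% with Aph and 5.59%, 5.70% and 5.74% with DMSO. Between 10 kb and 1 Mb they were 0.520%, 0.236% and 0.409% with Aph and 0.0639%, 0.126% and 0.0949% with DMSO, a ratio of 4.09, or 2.49 with each position counted once. With every junction counted, all 11 classes thus separated the groups, with the 4 classes of 10 kb to 1 Mb, both distant classes and the inverted bait-side joins within 10 kb higher with Aph and the other 4 classes lower. With each position counted once, 10 of the 11 classes did so and in the same direction. Deletions under 200 bp overlapped on this count, at 2.93 ± 0.507% and 3.43 ± 0.212% (exact permutation p = 0.20). They can take fewer than 200 different positions, and different positions were 19.4 ± 3.25% of them with Aph and 10.8 ± 0.399% with DMSO. Counting each position once therefore cannot decide whether the share of this class differed.

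**Figure D1:**
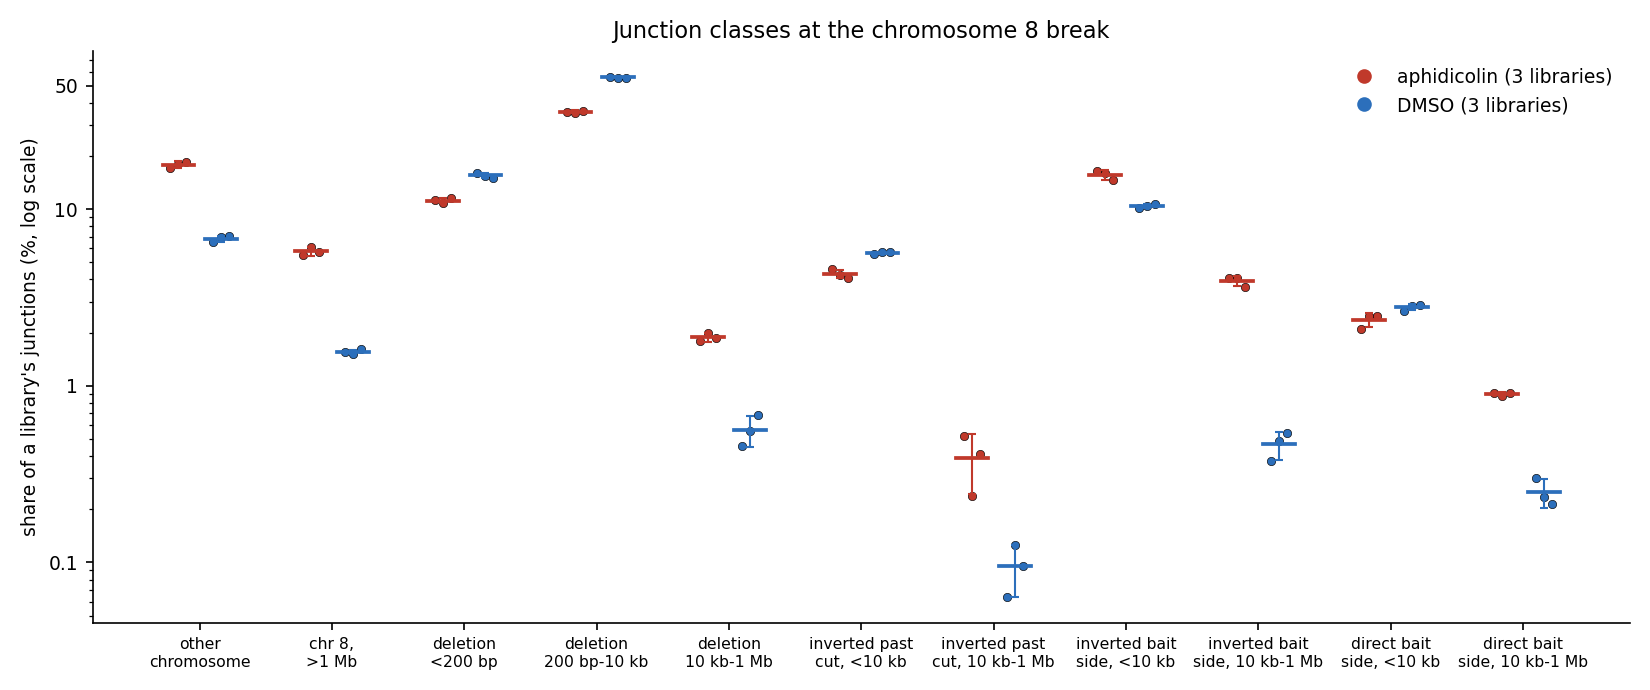
Share of all junctions of a library in each of the 11 junction classes, in percent on a log axis, with 1 point per library, the mean as a bar and the SD as an error bar (3 libraries per treatment). The groups do not overlap in any class, and the largest ratio of means is that of inverted bait-side joins of 10 kb to 1 Mb, at 3.63% to 4.096% for Aph against 0.374% to 0.538% for DMSO.

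Finer distance steps placed the point at which the groups crossed, given as junctions per 1000 of the library. Deletions of 500 bp to 1 kb were at 71.4, 70.8 and 75.0 with Aph and at 157, 147 and 144 with DMSO. At 2 to 5 kb the groups were close together, with 109, 111 and 106 against 114, 115 and 114. From 5 to 10 kb the order had turned, with 24.7, 21.3 and 21.9 against 12.5, 14.3 and 15.3. The Aph libraries were lower in each step up to 5 kb and higher in each step beyond it. The median length of deletions of 200 bp to 10 kb was 1492, 1530 and 1396 bp with Aph and 1049, 1080 and 1079 bp with DMSO. Within the short class it was 37, 39 and 35 bp with Aph and 52, 50 and 51 bp with DMSO, over all reads, repeated positions included.

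Inverted bait-side joins showed no such loss near the cut. At 500 bp to 1 kb they were at 20.9, 21.8 and 19.8 per 1000 with Aph and 19.4, 18.8 and 21.5 with DMSO, and the groups overlapped (exact permutation p = 0.40). At 2 to 5 kb the values were 53.6, 54.6 and 50.2 against 20.6, 20.2 and 21.8. At 30 to 100 kb they were 15.6, 15.9 and 13.9 against 0.730, 1.09 and 1.27. The ratio of Aph to DMSO grew over these steps and was smaller again at 300 kb to 1 Mb, where 2.86 to 3.55 per 1000 stood against 0.672 to 1.42. The median distance of the joins within 10 kb was 1717, 1754 and 1801 bp with Aph and 948, 856 and 884 bp with DMSO.

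**Figure D2:**
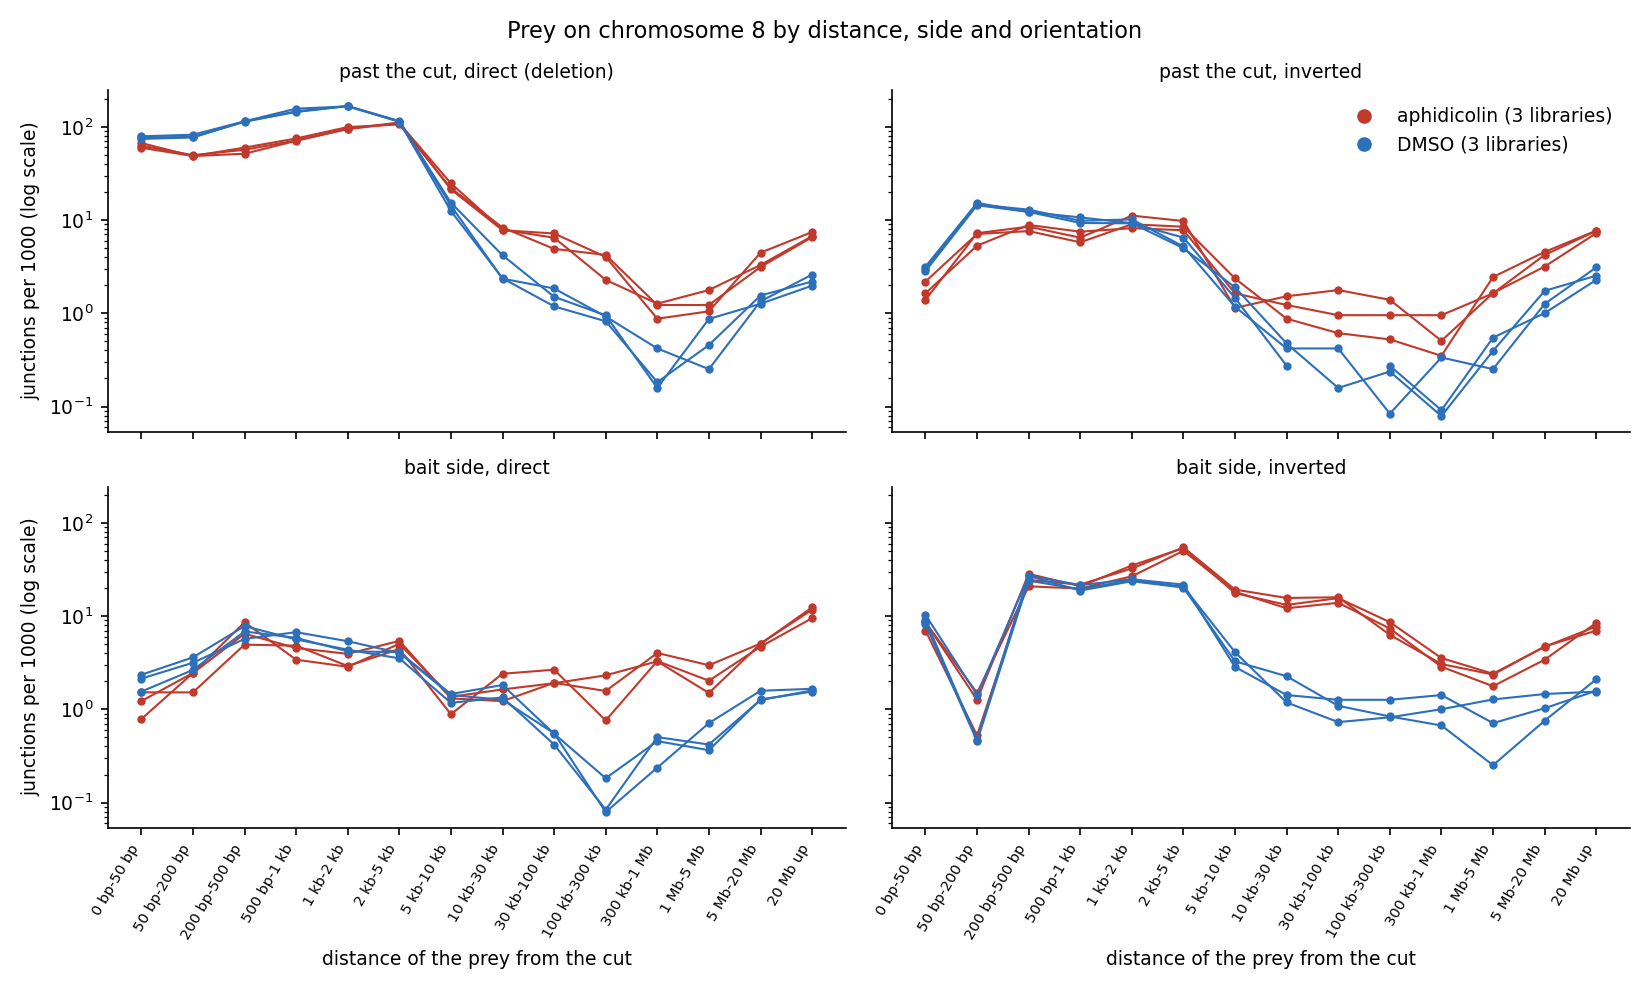
Junctions per 1000 of the library (log axis) by distance of the prey from the cut in 14 steps, with 1 line per library and 1 panel for each side of the cut and orientation, where values of 0 are not drawn. Deletions with Aph lie under those with DMSO up to 5 kb and above them beyond, while inverted bait-side joins overlap up to 1 kb and then part, to 13.9 to 15.9 against 0.730 to 1.27 at 30 to 100 kb.

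Beyond 1 Mb on chromosome 8 the excess leaned to the primer's side. That side held 56.6%, 55.0% and 57.2% of these junctions with Aph and 48.2%, 42.0% and 45.3% with DMSO. Outside the RDC windows of the chromosome the values were 51.4%, 49.7% and 54.5% against 49.0%, 42.0% and 44.3%, so the groups were still apart by 6.77 points. The share that lay over 20 Mb from the cut overlapped between the groups, at 55.0% to 61.5% with Aph and 48.3% to 61.9% with DMSO.

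Joins at the guide-like sites of chromosomes 14 and 6 were counted apart from other translocations. The chromosome 14 site had 67, 100 and 51 junctions with Aph and 52, 61 and 77 with DMSO, and the chromosome 6 site 12, 6 and 5 against 2, 8 and 2. Together they took 1.002%, 0.927% and 0.763% of all junctions with Aph and 0.493%, 0.579% and 0.625% with DMSO. The ratio of the remaining translocations to site junctions was 16.1, 18.5 and 23.3 with Aph and 12.2, 10.9 and 10.2 with DMSO. The sites were thus more frequent with Aph among all junctions but less frequent among translocations, at 5.04 ± 0.877% against 8.29 ± 0.655% (SD, n = 3 each). The lower share among translocations was that of the chromosome 14 site, at 4.52 ± 0.670% against 7.80 ± 0.759%, while the chromosome 6 site overlapped, at 0.516 ± 0.327% against 0.492 ± 0.415% (exact permutation p = 0.80). That a guide-like site was cut here was not tested.

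Micro-homology at distant junctions (prey over 1 Mb from the cut or on another chromosome) differed little between the treatments. Joins of 0 bp, called direct, were 16.6%, 16.4% and 15.9% of junctions without an insertion with Aph and 11.7%, 13.7% and 16.2% with DMSO. The third DMSO library lay within the Aph range, and the difference of 2.46 points was not separated from the spread (exact permutation p = 0.20). It was 1.38 points without DMSO replicate 1 and 3.64 points without DMSO replicate 3. Joins with 3 bp were lower with Aph in each library, at 17.6%, 17.6% and 16.8% against 20.8%, 19.8% and 19.7%. The 2 bp share, the most frequent length with Aph, was 23.6%, 22.96% and 24.0% against 25.4%, 22.3% and 19.7%, and the groups overlapped (exact permutation p = 0.70). Mean micro-homology was 2.54 ± 0.0244 bp with Aph and 2.62 ± 0.0633 bp with DMSO, and insertions took 12.9 ± 0.496% and 12.8 ± 0.447% of distant junctions (SD, n = 3 each). In translocations alone, direct joins were 18.4%, 18.3% and 17.9% with Aph and 12.3%, 13.3% and 17.3% with DMSO, without overlap.

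Within 1 Mb of the cut the pattern was another one, with fewer direct joins, fewer insertions and longer micro-homology with Aph. Direct joins were 9.36%, 10.6% and 9.56% with Aph and 13.8%, 14.2% and 13.7% with DMSO. Joins with 4 to 10 bp were 20.9%, 19.8% and 19.97% against 15.1%, 14.3% and 15.1%. All libraries of the groups were apart on both measures, and mean micro-homology was 2.46 ± 0.0405 bp with Aph and 2.10 ± 0.00968 bp with DMSO. Insertions were 18.0%, 19.4% and 19.3% of near junctions with Aph and 26.8%, 26.0% and 26.6% with DMSO. Lower insertion shares were found for every insertion size, with 10.8 ± 0.718% against 14.4 ± 0.150% for 1 to 3 bp and 3.09 ± 0.233% against 4.59 ± 0.156% for 10 bp and more. With each position counted once, an alternative added after seeing the data, the groups stayed apart with smaller differences. Direct joins were then 7.66 ± 0.670% against 9.10 ± 0.328% and insertions 16.3 ± 0.123% against 19.5 ± 0.801%, while insertions of 1 to 3 bp overlapped. Mean micro-homology on this count was 2.59 ± 0.0423 bp with Aph and 2.42 ± 0.00962 bp with DMSO.

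The near classes were then read one by one, because their mixture itself differed between the treatments. In deletions of 200 bp to 10 kb, insertions were 17.0%, 17.5% and 17.8% with Aph and 24.3%, 23.7% and 24.2% with DMSO. In deletions under 200 bp they were 24.3%, 29.3% and 27.6% against 37.5%, 37.6% and 37.7%, and in inverted bait-side joins within 10 kb 18.6%, 20.9% and 19.9% against 25.1%, 24.5% and 25.9%. The lower insertion share with Aph therefore held inside each of these 3 classes. In deletions of 10 kb to 1 Mb the groups overlapped, with 14.2%, 10.6% and 18.2% against 16%, 21.2% and 18.6% (exact permutation p = 0.20). Inversions past the cut within 10 kb (18.1 ± 2.00% against 25.8 ± 0.723%), direct bait-side joins within 10 kb (17.3 ± 1.94% against 23.5 ± 2.83%) and inverted bait-side joins of 10 kb to 1 Mb (10.1 ± 1.07% against 16.9 ± 4.52%) were lower with Aph without overlap, and direct bait-side joins of 10 kb to 1 Mb overlapped (13.2 ± 1.96% against 17.1 ± 3.73%). Inversions past the cut of 10 kb to 1 Mb went the other way without overlap, with 19.5%, 22.2% and 20% against 14.3%, 13.3% and 8.33%, on 41, 27 and 30 junctions against 7, 15 and 12. Joins of 0 bp were lower with Aph without overlap in both deletion classes up to 10 kb and in both inverted bait-side classes. They were higher in direct bait-side joins within 10 kb, at 15.7 ± 2.61% against 10.4 ± 1.35%. Mean micro-homology was lower in that class, at 2.52 ± 0.0607 against 2.60 ± 0.0236 bp. The other near classes overlapped in 0 bp joins.

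**Figure D3:**
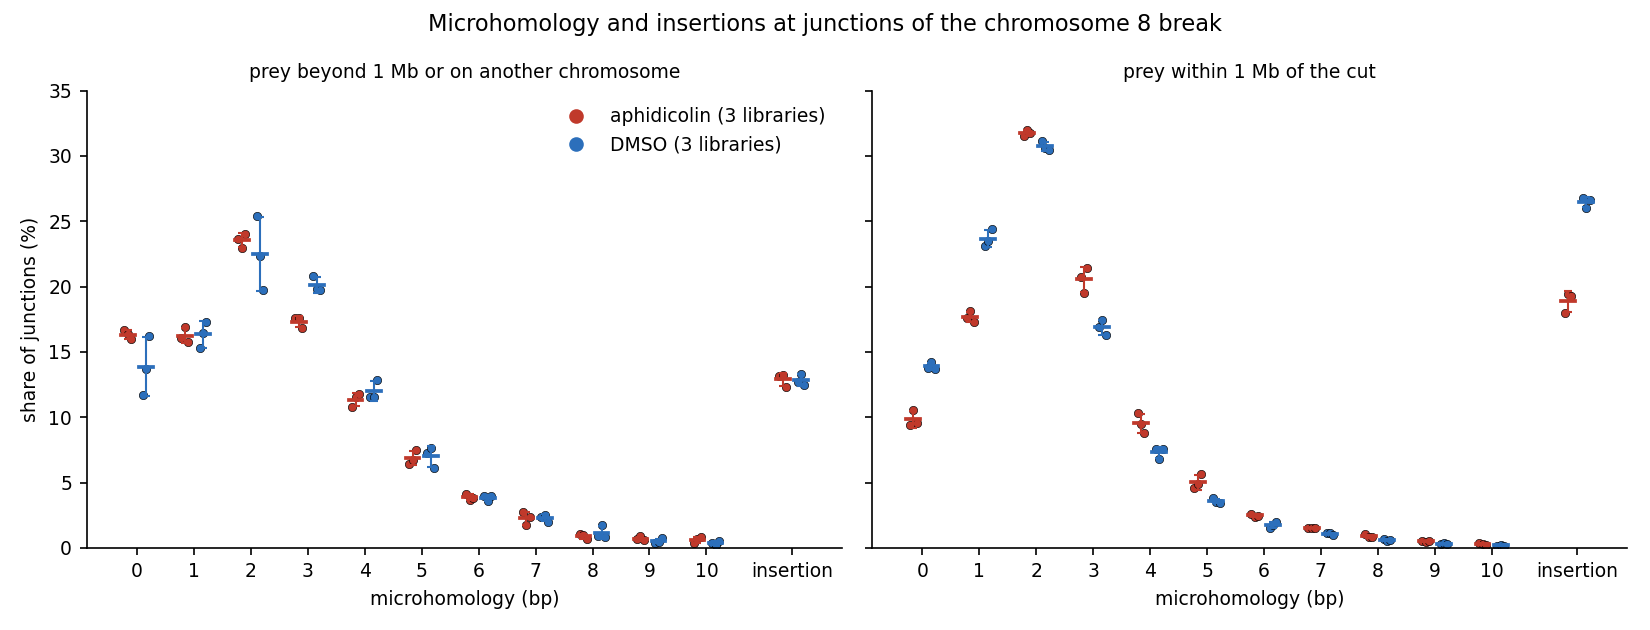
Share of junctions in percent by micro-homology length (0 to 10 bp, of junctions without an insertion) and, at the right of each panel, share of all junctions with an insertion, for distant prey and for prey within 1 Mb of the cut, with 1 point per library and bars for mean and SD (3 libraries per treatment). The 0 bp shares overlap between the groups for distant prey, whereas within 1 Mb they are 9.36% to 10.6% with Aph and 13.7% to 14.2% with DMSO.

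The bait end had lost more bases at distant junctions with Aph. Mean bait length was 107.5, 107.0 and 105.6 bp with Aph and 112.8, 111.2 and 111.7 bp with DMSO. The means of 106.7 ± 0.985 and 111.9 ± 0.828 bp differed by -5.18 bp, and the groups did not overlap (SD, n = 3 each). Bait ends of 129 bp or more, with no base lost, were 8.76%, 7.14% and 7.82% with Aph and 12.3%, 10.3% and 12.5% with DMSO. A loss of 25 bp or more was found in 37.5%, 40.2% and 43.5% against 26.4%, 29.4% and 29.9%, and a loss of 11 to 24 bp in 27.4 ± 1.97% against 27.0 ± 2.43%. The gain was thus among long losses, at the expense of losses under 11 bp. Near the cut the difference was smaller, with 112.5, 112.7 and 112.2 bp with Aph and 114.5, 113.9 and 114.2 bp with DMSO, a difference of -1.70 bp, or -3.02 bp with each position counted once.

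Single bases of the bait carried part of this pattern, and the 5 most frequent ends at distant junctions were looked at one by one. The end at exactly 129 bp, the last base before the cut, held 3.48%, 2.63% and 3.15% of distant junctions with Aph and 6.70%, 5.07% and 5.22% with DMSO. The end after 103 bp held 3.93%, 3.86% and 4.33% against 3.63%, 3.08% and 3.76%. Both separated the groups, in opposite directions. The ends after 115, 122 and 128 bp overlapped between the groups, with pooled counts of 321, 383 and 318 junctions. Direct joins made up 55.7% of the junctions that end after 103 bp, against 5.36% to 29.2% at the other 4 frequent ends. This end supplied 168 of the 1062 direct translocation joins of the 6 libraries, and it took 15.4 ± 1.58% of them with Aph and 17.0 ± 3.79% with DMSO.

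**Figure D4:**
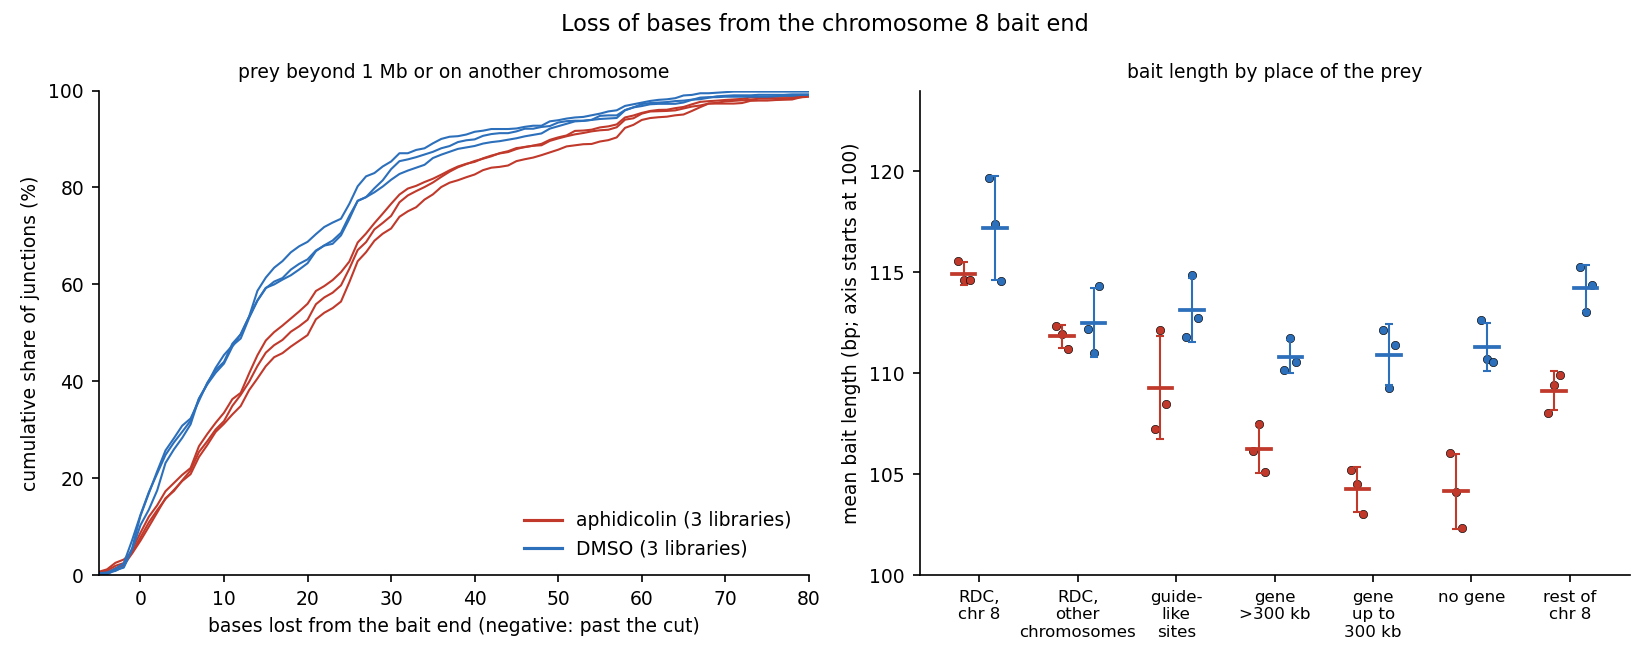
The left panel gives the cumulative share of distant junctions in percent by bases lost from the bait end, with 1 line per library, and the right panel the mean bait length in bp by place of the prey (axis from 100 bp), with 1 point per library and bars for mean and SD (3 libraries per treatment), where the gene classes and no gene cover other chromosomes outside RDC windows and guide-like sites. The Aph lines lie under the DMSO lines from a loss of 0 to 80 bp. In bait length the groups overlap in both RDC classes and at guide-like sites. They do not overlap at prey outside genes, with 102.3 to 106.0 bp against 110.6 to 112.6 bp.

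Bait loss was next set out by place of the prey. In RDC windows of other chromosomes bait length was 112.3, 112.0 and 111.2 bp with Aph and 112.2, 111.0 and 114.3 bp with DMSO, and the groups overlapped (difference -0.68 bp, exact permutation p = 0.70). Without DMSO replicate 3 the difference turned to 0.23 bp. In translocations outside these windows it was 105.9, 105.1 and 103.2 bp against 112.2, 110.7 and 111.0 bp. The gap between both places within a library was 6.46, 6.84 and 8.01 bp with Aph and 0.0274, 0.296 and 3.33 bp with DMSO, a difference of 5.89 bp between the treatments (exact permutation p = 0.10). The DMSO values inside RDC windows rest on 31, 28 and 32 junctions, against 141, 177 and 130 with Aph. On chromosome 8 bait length showed the same order, with 108.1, 109.4 and 109.9 bp against 115.3, 113.0 and 114.4 bp outside RDC windows. Inside them it overlapped, at 114.9 ± 0.554 and 117.2 ± 2.57 bp (exact permutation p = 0.40), on 13, 19 and 18 DMSO junctions. A loss of 25 bp or more was still higher there with Aph without overlap, at 17.2%, 20% and 20.9% against 15.4%, 10.5% and 16.7%. Bait length at guide-like sites overlapped as well (difference -3.85 bp, exact permutation p = 0.20). CTR and TTR windows were also counted apart for 4 measures of the joins, a comparison chosen after the values were seen. In CTR windows a loss of 25 bp or more was found in 14.7%, 21.6% and 18.2% of junctions with Aph and in 26.7%, 57.1% and 50% with DMSO, and in TTR windows in 32.9%, 28.8% and 42.2% against 25%, 19.05% and 12.5%. The groups were apart in both, in opposite directions, with only 15, 7 and 8 DMSO junctions in CTR and 16, 21 and 24 in TTR windows. The CTR share minus the TTR share averaged -16.4 points with Aph and 25.8 points with DMSO (exact permutation p = 0.10, 0.20 after Benjamini-Hochberg adjustment over the 4 measures), and 0.10 is the smallest p that 3 against 3 libraries allow. For insertions it averaged 4.19 points with Aph and -4.72 points with DMSO (exact permutation p = 0.10, 0.20 after the same adjustment). Bait length and direct joins overlapped in this comparison (exact permutation p = 0.30 and 0.40). Inside all RDC windows of other chromosomes, 2 bp joins were 24.2%, 31.8% and 23.01% with Aph and 14.3%, 18.5% and 11.5% with DMSO, while direct joins overlapped.

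The study's source data list 107 RDCs, 42 in CTR and 65 in TTR, each with a gene name and 1 position and without its length. A window of 1 Mb was laid around every position, which gave 98 windows on other chromosomes and 9 on chromosome 8. The study's text counts more RDCs than this list holds, so what is counted below as outside RDCs can still hold unlisted ones. RDCs had been defined earlier, in aphidicolin-treated neural progenitor cells, so a higher density there with Aph is not independent evidence of the direction. Density is given as junctions per 1000 junctions on other chromosomes and per Mb (JPTM), which removes the difference in the number of translocations.

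The CTR windows held 68, 97 and 66 junctions with Aph and 15, 7 and 8 with DMSO. Their density was 1.29, 1.20 and 1.24 JPTM with Aph and 0.541, 0.218 and 0.231 JPTM with DMSO. The groups were well apart, with means of 1.25 ± 0.0462 and 0.330 ± 0.183 JPTM and a ratio of 3.78 (SD, n = 3 each; exact permutation p = 0.10). In the TTR windows density was 0.919, 0.655 and 0.798 JPTM against 0.381, 0.432 and 0.458 JPTM, a ratio of 1.87. These groups did not overlap either, and the difference between CTR and TTR was not tested. The rest of the genome on other chromosomes, outside the windows of listed RDCs, was at 0.371, 0.375 and 0.373 JPTM with Aph and 0.396, 0.398 and 0.399 JPTM with DMSO. RDC windows thus took 10.5%, 8.55% and 9.56% of translocations with Aph and 4.36%, 3.40% and 3.60% with DMSO, and the lower value elsewhere is the other side of the same sum.

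The excess lay close to the listed positions. Within 125 kb of CTR positions there were 84 junctions with Aph and 0 with DMSO, which gave 1.68, 1.93 and 1.73 JPTM against 0 in each DMSO library. With 3 counts in place of 0 over the 2423 pooled DMSO translocations, or 0.127 JPTM, the Aph mean of 1.78 JPTM was 14.02-fold higher. This yardstick pools the DMSO libraries and leaves out the spread between libraries, so it is not a tested bound. At 125 to 250 kb there were 79 junctions against 9, or 2.06, 1.39 and 1.81 JPTM against 0.721, 0.249 and 0.231. At 250 to 500 kb the groups overlapped, with 0.728 ± 0.0141 and 0.460 ± 0.227 JPTM (exact permutation p = 0.20), and at 2 to 4 Mb they were at 0.379 ± 0.0177 and 0.366 ± 0.0311 JPTM. Around TTR positions DMSO libraries were not empty, and within 125 kb the values were 1.51, 0.721 and 1.20 JPTM with Aph and 0.572, 0.823 and 0.611 JPTM with DMSO. From 125 to 250 kb and from 250 to 500 kb of TTR positions the groups were apart, at 0.847 ± 0.140 against 0.398 ± 0.210 and 0.586 ± 0.0337 against 0.314 ± 0.107 JPTM. A junction near several positions counts for each of them here.

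Single RDCs hold few junctions, and their values in each library are small whole counts turned into JPTM. Mean density was higher with Aph in 36 of 39 CTR windows and in 43 of 59 TTR windows, together 80.6%, against 48% of all 2411 windows, which are the RDC windows and the 2313 tiles of 1 Mb that touch none of them. Of the 2113 windows and tiles that held a junction, 54.8% were higher. The lowest Aph library lay above the highest DMSO library in 12 CTR and 7 TTR windows. That is 19.4% of RDC windows, beside 3.77% of all 2411 windows and tiles. No RDC window showed the opposite order, which 1.41% of all windows and tiles did.

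**Figure D5:**
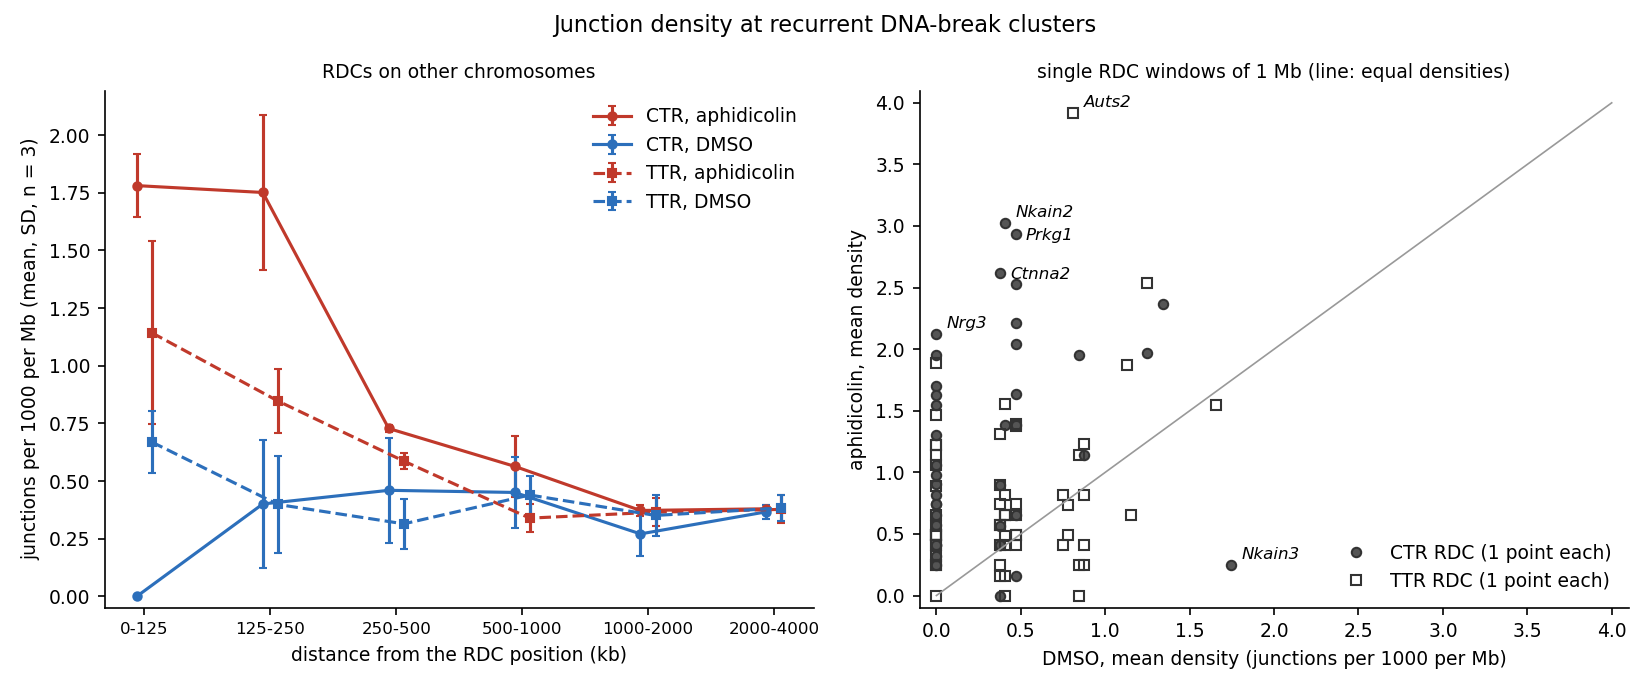
The left panel gives density in junctions per 1000 and Mb by distance from the listed RDC position, as means with SD over 3 libraries, for CTR and TTR RDCs on other chromosomes, and the right panel the mean density of each of the 98 RDC windows with DMSO (horizontal) and Aph (vertical), with the line of equal densities. Within 125 kb of CTR positions DMSO is at 0 and Aph at 1.78, and most single RDCs lie above the line, led by Auts2 at 3.92 against 0.809.

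The densest RDC with Aph was Auts2, which encodes a regulator of transcription in developing neurons (TTR, chr5:131400001-132400000). It held 4, 6 and 8 junctions with Aph and 0, 2 and 0 with DMSO, or 3.92 ± 1.70 and 0.809 ± 1.40 JPTM. Nkain2, whose product binds a subunit of the sodium pump, held 3, 2 and 8 against 0, 1 and 0, or 3.03 ± 2.55 and 0.405 ± 0.701 JPTM. Prkg1, a cGMP-dependent protein kinase, held 3, 6 and 5 against 1, 0 and 0. Auts2 and Prkg1 separated the groups, whereas Nkain2 did not, since its second Aph library at 0.967 JPTM lay under the second DMSO library at 1.21. Ctnna2, an alpha-catenin that ties cadherins to actin, held 5, 4 and 3 against 0, 0 and 1, or 2.62 ± 0.958 and 0.375 ± 0.650 JPTM. Nrg3, a ligand of the ErbB4 receptor, held 2, 4 and 4 against 0 in each DMSO library, or 2.12 ± 0.746 JPTM with Aph.

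These 5 had the largest differences between the means, and the next ranks by density with Aph were mixed. Naaladl2, a relative of the NAALADase peptidases, held 4, 3 and 3 junctions with Aph against 1, 0 and 0 and separated the groups, with 2.21 ± 0.760 JPTM with Aph against 0.469 ± 0.812 JPTM with DMSO. Sdk1, an adhesion protein of the immunoglobulin superfamily, held 4, 2 and 5 against 1, 1 and 1 and overlapped. Magi2, a synaptic scaffold, held 5, 7 and 0 against 2, 1 and 0, so its Aph libraries spread from 0 to 3.71 JPTM. Adgrl3, the adhesion receptor latrophilin 3, held 2, 2 and 5 against 1, 0 and 0 and overlapped as well.

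At the other end of the list, 5 RDCs had the lowest differences, and all of them overlapped between the groups. Nkain3, a paralogue of Nkain2, held 0, 0 and 1 junction with Aph and 2, 2 and 0 with DMSO, or 0.245 ± 0.425 and 1.75 ± 1.52 JPTM. Nbea, which encodes the trafficking protein neurobeachin, was at 0 with Aph and 0.844 ± 0.744 JPTM with DMSO, on 2 junctions. The differences of Prkce, a protein kinase C, of Csmd2 and of Zbtb20, a zinc finger transcription factor, were -0.63, -0.60 and -0.50 JPTM.

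Tested one by one with limma on log2(JPTM + 0.5), no RDC passed an adjusted p of 0.05 in the design as set. At least 12 junctions over the 6 libraries were required, which 10 RDC windows and 8 tiles met, in part only through their Aph junctions. Of these 18 windows 2 were called, or 11.1%, both of them tiles, and 8 had an unadjusted p under 0.05. Auts2 came closest among the RDCs, with a log2 difference of 2.23 (SE 0.78, limma adjusted p = 0.0537), followed by Prkg1 at 2.11 (SE 0.82, adjusted p = 0.0734) and Ctnna2 at 2.03 (SE 0.85, adjusted p = 0.0755). Other settings called single RDCs. Auts2 passed with a pseudocount of 1, with each position counted once and without DMSO replicate 2 (limma adjusted p of 0.038, 0.0397 and 0.0119). Nrg3 passed with windows of 2 Mb (limma adjusted p = 0.00215). With 1 library left out, Prkg1 passed without DMSO replicate 1, Ctnna2 without DMSO replicate 3 and Sdk1 without Aph replicate 2. For Auts2, Prkg1 and Ctnna2 the library left out was the only DMSO library with a junction in that window. For Sdk1 it was the lowest Aph library. These calls with a library left out therefore rest on which library was dropped. The tile that holds the chromosome 14 guide-like site fell with Aph by 0.76 on the log2 scale (SE 0.18, limma adjusted p = 0.00422). The tile chr14:19000001-20000000 rose by 2.85 (SE 0.72, limma adjusted p = 0.00489), on 32 junctions with Aph and 2 with DMSO. Both calls were lost with a minimum of 6 junctions (limma adjusted p = 0.064 each) and with none, that of the first tile also with the replicate number as a block (limma adjusted p = 0.102), and that of the second tile also without Aph replicate 2, Aph replicate 3 or DMSO replicate 1. The junctions of the second tile lay at chr14:19410001-19425000, with 5, 18 and 9 with Aph and 0, 2 and 0 with DMSO, and a like cluster at chr2:98660001-98670000 held 7, 15 and 9 against 1, 3 and 2. Neither stretch resembles the guide within 6 mismatches. No repeat annotation was used here, so whether these stretches are repeats was not tested.

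The listed genes were grouped by function, with groups chosen with earlier results in view. Of 16 RDCs of cell adhesion and axon guidance genes on other chromosomes, 15 had a higher mean with Aph, with 89 junctions against 14 and a median difference of 0.74 JPTM. Of 21 RDCs of synaptic and receptor genes, 19 were higher, with 125 junctions against 18 and a median difference of 0.98 JPTM. Both medians stood above the 0.41 JPTM of all 98 RDCs and the 0.03 JPTM of the tiles that held a junction. By timing, the median was 0.90 JPTM for the 39 CTR windows and 0.25 JPTM for the 59 TTR windows. The gene groups were not matched for timing, so function and timing cannot be told apart here. The count of higher means is to be read against 79 of 98, or 80.6%, for all RDC windows of other chromosomes. The 5 receptor protein tyrosine phosphatases were all higher, with 21 junctions against 4. Of 8 windows of common fragile site genes, of which 2 lie in Dmd, 7 were higher, with 39 junctions against 4. The 3 Aph libraries spread from 0.725 to 1.48 JPTM, and the window that was not higher, in Dmd, held no junction. The 6 transcription factor genes were split, with 4 higher and 2 lower, and had 20 junctions against 6. Of 4 windows of dystrophin complex genes, of which 2 lie in Dmd, 3 were higher, on 15 junctions against 2, and 1 Dmd window held none.

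The CSMD genes encode large membrane proteins with CUB and sushi domains. Csmd2 and Csmd3, on other chromosomes, held 2 junctions with Aph and 3 with DMSO together and overlapped between the groups. Csmd1, on the bait chromosome at chr8:16300001-17300000 and 42.7 Mb from the cut, held 39, 57 and 26 junctions with Aph and 1, 1 and 0 with DMSO. Since the bait chromosome has another background, its RDCs are given per 1000 chromosome 8 junctions more than 1 Mb from the cut and per Mb. On that scale Csmd1 was at 90.1, 81.1 and 62.2 with Aph and 5.88, 5.52 and 0 with DMSO, the highest of the 9 RDCs of the chromosome with Aph.

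Together the 9 windows took 34.9%, 29.9% and 26.3% of the distant chromosome 8 junctions with Aph and 7.65%, 10.5% and 8.87% with DMSO. Their mean density was 33.7 ± 4.78 with Aph and 10.0 ± 1.59 with DMSO, a ratio of 3.37, while the rest of the chromosome was at 5.88 ± 0.363 and 7.69 ± 0.121. The windows stood above the rest of the chromosome in all 6 libraries, and further above it with Aph. In 7 of the 9 windows all Aph libraries lay above all DMSO libraries, beside 4.59% of the 109 other tiles of the chromosome, of which 19.3% showed the opposite order.

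Sgcz, a sarcoglycan of the dystrophin complex, held 22, 29 and 18 junctions with Aph and 0, 1 and 3 with DMSO, or 45.0 ± 5.08 and 6.77 ± 7.47 on that scale. The window listed as 1700019L22Rik held 22, 32 and 15 against 0, 4 and 2, or 44.1 ± 7.57 and 10.7 ± 11.1. Both were close in density with Aph and lay 21.3 and 9.08 Mb from the cut. Wwox, an oxidoreductase gene that spans a common fragile site, held 9, 12 and 12 against 1, 1 and 0, or 22.2 ± 5.94 and 3.80 ± 3.30. Cdh13, a cadherin held to the membrane by a lipid anchor, held 20, 20 and 11 against 4, 1 and 2, or 33.7 ± 10.9 and 13.0 ± 9.40. Tenm3, a teneurin that guides axons, was at 34.0 ± 5.28 against 19.7 ± 7.54, and March1, a ubiquitin ligase, at 21.96 ± 3.18 against 10.8 ± 5.40. These also separated the groups, by smaller ratios than Csmd1, Sgcz or Wwox.

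Large and Pard3 did not separate the groups. Large, a glycosyltransferase that modifies dystroglycan, held 9, 17 and 6 junctions with Aph and 1, 4 and 4 with DMSO, or 19.8 ± 4.99 and 15.9 ± 8.75 (exact permutation p = 0.60). Pard3, a cell polarity scaffold, held 2, 4 and 2 against 1, 2 and 0, or 5.03 ± 0.576 and 5.64 ± 5.53 (exact permutation p = 0.70). Pard3 was the only window of the 9 with a lower mean with Aph, and with 11 junctions in all its density was no higher than that of the rest of the chromosome. It is also the farthest from the cut, at 67.8 Mb.

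Translocations were also sorted by the longest protein-coding gene at the prey. Genes over 800 kb held 15.8%, 13.97% and 13.8% of translocations with Aph and 13.1%, 10.9% and 13.0% with DMSO. Lrmda, which holds the chromosome 14 guide-like site, is in this class. Without both guide-like sites, an alternative chosen after seeing the data, the values were 11.5%, 9.63% and 10.4% against 6.24%, 3.84% and 4.70%, and the difference went from 2.19 to 5.60 points. Genes of 300 to 800 kb held 10.9%, 9.62% and 10.4% against 7.74%, 8.62% and 9.01%, also without overlap. Shorter genes overlapped between the groups, with 13.6 ± 1.85% against 13.7 ± 1.22% for 100 to 300 kb. Prey within 5 kb of a gene start were 8.97 ± 1.21% and 8.45 ± 1.36% of translocations (exact permutation p = 0.50).

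The same contrast was then read at the breaks on chromosome 12 (2 Aph and 2 DMSO libraries, another sequencing run) and chromosome 14 (3 Aph and 4 DMSO libraries, with 1 Aph library in another run) in the same kind of cell. The share of translocations differed between Aph and DMSO by 22.9 points at chromosome 12, from 16.8 ± 2.88% to 39.8 ± 1.16%, and by 12.05 points at chromosome 14, from 9.78 ± 2.06% to 21.8 ± 3.21%, beside 11.1 points at chromosome 8. Inverted bait-side joins of 10 kb to 1 Mb differed by 1.27 and 2.91 points, beside 3.47 points here. CTR density differed by 0.640 and 0.708 JPTM, beside 0.917 JPTM, and bait length by -6.03 and -4.67 bp, beside -5.18 bp. Without 1 DMSO library of chromosome 14, of 1139 junctions and apart from the others, the bait length difference there was -8.52 bp. These 4 went the same way at the 3 breaks, whereas the join measures did not all do so. Direct joins at distant junctions differed by 4.597 and -3.35 points at chromosomes 12 and 14, beside 2.46 points here, 2 bp joins by -0.47 and 0.0987 points, beside 1.05, and insertions by -1.03 and -10.3 points, beside 0.0517. Without that DMSO library the chromosome 14 values were 2.30 points for direct joins, -2.95 points for 2 bp joins and -4.67 points for insertions. None of the 32 differences between breaks passed correction (exact permutation of treatment within each bait, smallest adjusted p = 0.933), and the smallest unadjusted p was 0.0971, for insertions at chromosome 14. Without the same DMSO library, a choice made after seeing the data, the difference between the chromosome 8 and 14 breaks in insertions was 4.72 points (exact permutation p = 0.05).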

How the data were processed

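Cas9 and the guide were introduced by nucleofection of a plasmid, cells were treated for 96 h, and LAM-HTGTS libraries were sequenced with paired reads on a NextSeq. The authors demultiplexed, aligned (Bowtie2, mm10 per the labels) and filtered the reads in the HTGTS pipeline and deposited 1 junction list per library, whose values are positions of bait and prey with no other normalization. Versions of these tools are not given in the sources used here. Reads carry no molecular identifiers.

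From these lists, those placed on the autosomes, X and Y were counted with Python 3.11.15, NumPy 2.4.6, pandas 2.3.3 and pysam 0.24.0, and drawn with Matplotlib 3.10.9. In the 6 libraries 0 to 19 junctions lay on unplaced sequence. Sequence came from GRCm38, the guide and primer from the study's supplement, and genes from GENCODE M21. Micro-homology and bait length followed the study's definitions (0 to 10 bp, prey beyond 1 Mb), with insertions counted apart. Library means were compared by exact permutation tests, and windows with limma 3.58.1 in R 4.3.3 with Benjamini-Hochberg adjustment. The window step was tested on simulated data for the Aph and DMSO comparison over 2411 windows, with 200 of them changed. At the real depth 98 changed windows reached the count minimum with an 8-fold change and 33 with a 3-fold change. Of these, 87 and 2 were called. Of the 21 and 22 unchanged windows that were tested, 0 were called. Counts were drawn without added spread between libraries, so false calls under such spread were not tested.

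Named genes were windows past the threshold, the 10 densest RDCs with Aph, the 5 largest and 5 lowest differences, all RDCs of chromosome 8 and gene list members by count. Some RDCs of the list are not reported here by name. The members and lists were chosen with earlier results of these data known. Same-numbered libraries did not deviate together (r = -0.09, -0.04 and -0.16 over 2313 tiles), so the numbers do not pair them. Alternatives were other windows, totals, distance limits, annotations, pseudocounts and count minimums, each position once, a replicate block and each library left out. Leaving out guide-like sites was added after seeing the data.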

Additional observations from a re-analysis of the deposited data

Results flagged for a closer look

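In the chromosome 14 comparison the second DMSO library, of 1139 junctions, lay far from the other 3 DMSO libraries in 7 of the 16 measures examined, where chance marks about 1 in 20. Its deletions under 200 bp were 37.0% of junctions (20.2% to 22.2% in the others), its inversions within 10 kb 1.84% (3.79% to 4.07%), and its inverted bait-side joins 5.97% within 10 kb (11.1% to 11.6%) and 0.263% from 10 kb to 1 Mb (0.433% to 0.462%). Direct joins were 38.4% (14.9% to 16.6%), 2 bp joins 12.8% (24.3% to 25.6%) and insertions 42.9% (20.1% to 20.8%).

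Junctions on unplaced sequence, which enter no comparison above, were at 1.27 ± 0.658 per 1000 with Aph and 0.217 ± 0.188 per 1000 with DMSO in the chromosome 8 libraries (SD, n = 3 each, exact permutation p = 0.10).

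Joins with 25 bp or more lost from the bait end were a smaller share with Aph than with DMSO in CTR windows and a larger share in TTR windows, without overlap in either. The treatment difference in CTR minus that in TTR windows was -42.2 points (exact permutation p = 0.10, the smallest that 3 against 3 libraries allow), on 7 to 15 DMSO junctions per library in CTR and 16 to 24 in TTR windows.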

How the results depend on the processing

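Of 242 recomputed values for 22 results, 15 changed direction. Counted among distant junctions alone, translocations differed by -5.76 points. Within 1 Mb of the cut, direct joins differed by -4.06, 3 bp joins by 3.66 and insertions by -7.60 points. In translocations only, 2 bp joins differed by -0.15 and insertions by -0.30 points, and with each position once insertions by -0.28 points. Density outside RDCs differed by 0.0398 per 1000 and Mb with all junctions as the total. With 1 library left out, insertions ranged from -0.13 to 0.34 points (without Aph 1, Aph 2, DMSO 1 or DMSO 3 they were -0.0769, -0.11, -0.0106 and -0.13), 2 bp joins from -0.33 to 2.51 points, prey near gene starts from -0.26 to 1.22 points and bait length inside RDC windows from -1.44 to 0.23 bp, the highest without DMSO replicate 3. These overlapped between the groups in the first place. Single windows called were 2, against 0 of 180 with at least 6 junctions (36 with an unadjusted limma p under 0.05), 0 of 2411 without a minimum (96 unadjusted), 4 of 47 at 2 Mb, 1 with the replicate block (the tile of the guide-like site was not called, limma adjusted p = 0.102) and 1 to 5 with 1 library left out, where 6 to 15 windows were tested. It was 1 without Aph 3, 4 without DMSO 1, 5 without DMSO 2 and 4 without DMSO 3. RDCs among the calls numbered 0, and 1 with a pseudocount of 1, 1 with each position once, 1 at 2 Mb and 0 to 2 with 1 library left out. The replicate block turned no direction of the other results. The cause of these shifts was not tested.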
